A study of Homo sapiens with 6 samples.

Results

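The mRNAs of hnRNP and SR splicing factors were examined for their level and for LARP1 binding before and after inhibition of mTOR. Members were the transcripts with an mRNA accession whose gene name in the deposited mRNA-seq table begins with HNRNP or SRSF, together with PTBP1, PTBP2, TRA2A, TRA2B, SRRM1, SRRM2 and YBX1. This rule took 80 transcripts of 38 genes, out of 38438 transcripts in the table. There were 49 transcripts of 20 hnRNP genes, 21 transcripts of 11 SR protein genes, 4 transcripts of the 4 SR-related genes, 5 transcripts of PTBP1 and PTBP2, and 1 transcript of YBX1. The study used cells of the human embryonic kidney line HEK293T, which carries the SV40 large T antigen, either growing or treated with PP242 at 2.5 µM, a compound that inhibits the kinase mTOR. The labels do not say how long PP242 was applied. For PAR-CLIP, which crosslinks a protein to the RNA it touches, the cells of both conditions also received 100 µM 4-thiouridine for 14 hr and ultraviolet light at 150 mJ/cm2 before endogenous LARP1 was precipitated, and 1 library was made per condition. For mRNA-seq 2 libraries per condition were made, which the series describes as biological duplicates.

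The hnRNPs coat nascent RNA and often block the use of splice sites, whereas SR proteins carry an arginine- and serine-rich domain and usually bind exons and recruit the splicing machinery. Many SR protein genes contain a conserved exon whose inclusion yields a transcript that is degraded by nonsense-mediated decay, so that each protein can limit its own mRNA. In earlier work LARP1 bound the 5′ terminal oligopyrimidine (TOP) motif, a C followed by pyrimidines at the 5′ end of an mRNA. Ribosomal proteins and translation factors are encoded by TOP mRNAs, whose translation falls when mTOR is inhibited. The paper on these data reports that LARP1 sites in 5′UTRs seldom overlapped the TOP motif and lay mostly at the 3′ end of the 5′UTR. It proposes that LARP1 is no true TOP-binding protein in cells. HNRNPA1 mRNA has been classed among the TOP mRNAs.

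The transcription starts of the genes with the strongest LARP1 sites, and of the 2 genes whose annotated start carries a TOP-like letter pattern, are shown because the 5′ end is where a TOP motif would lie. The start of YBX1 is added as that of the most abundant member. Sequences are from RefSeq annotation of GRCh38.p14, read 5′ to 3′ on the strand of the gene, with 15 bases before the start in lower case and the 15 bases from the start in capitals.
HNRNPA0, chr5:137754349-137754378, minus strand: cgcgcgttcagcggcCTCTTTGTGTGGTGC
SRSF9, chr12:120469734-120469763, minus strand: tttgcctccgccgacCCCTTCGCTTCCGCT
SRSF3, chr6:36594347-36594376, plus strand: ggagaaggcggtggtCCGCCATTTCGTGGA
HNRNPA2B1, chr7:26200732-26200761, minus strand: agcggctctagcggcAGTAGCAGCAGCGCC
HNRNPL, first start, chr19:38852333-38852362, minus strand: ctcccaaaacttcccAGTGTCTGCTCTTTT
HNRNPL, second start, chr19:38849972-38850001, minus strand: aatgagaggcgggggGAGGCGGGTTCTGCG
PTBP1, first start, chr19:797437-797466, plus strand: gggtcggttcctgctATTCCGGCGCCTCCA
PTBP1, second start, chr19:797969-797998, plus strand: tttcccgccgcccggACTCTGCCCCCGGCG
YBX1, chr1:42682403-42682432, plus strand: cccgcctgtcccgccATTCTCGCTAGTTCG

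The pattern searched was a C at the annotated start followed by 4 bases that are each C or T, on the transcribed strand only. It was found at 2 of 50 annotated starts of 35 member genes, those of HNRNPA0 and SRSF9, which is 4.0% against 4.07% of all 35116 annotated starts. The starts of HNRNPA1, SRSF2 and TRA2A were not analysed here. The starts used in HEK293T cells were not measured, and this match of letters describes the annotation only. Neither HNRNPA0 nor SRSF9 had a listed LARP1 site in either condition.

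The mRNA levels are given as RPKM, reads per kilobase of transcript, scaled to the mapped reads of the library. RPKM does not give the number of reads, but low values lie in steps, and by the size of these steps the other libraries were 1.04 to 1.06 times as deep as the first growing library. HEK293T markers were present, with VIM at 225 RPKM, CDH2 at 22.5, LIN28B at 19.6 and NEFM at 17.1, while PAX2 was at 0.123. Markers of other cells were low, at 1.80 RPKM for the fibroblast gene COL1A1, 0.0356 for the liver gene ALB and 0.0065 for the blood gene PTPRC.

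The factors were abundant mRNAs. The median over the 38 genes, each represented by its highest transcript, was 74.6 RPKM. YBX1, which encodes a cold shock domain protein that packages mRNA, had the highest level of the 38 genes, at 722 and 703 RPKM in growing cells and 762 and 740 RPKM after PP242. HNRNPA1, a shuttling hnRNP that represses exons, came next with 401 and 397 RPKM in growing cells and 429 and 429 RPKM after PP242. HNRNPA2B1, its close relative, had 263 and 265 RPKM in growing cells and 268 and 283 RPKM after PP242. These 3 genes kept their order in each of the 4 libraries, with gaps far wider than the differences between libraries. HNRNPA3 had 167 and 168 RPKM in growing cells and 170 and 175 RPKM after PP242. SRSF9, the most abundant SR protein mRNA, had 175 and 169 RPKM in growing cells and 165 and 165 RPKM after PP242. HNRNPA3 and SRSF9 exchanged places between the conditions, so their order is not fixed. At the lower end stood PTBP2, HNRNPCL1 and SRSF12. HNRNPCL1 is an intronless copy of HNRNPC and shares reads with it, so its level is uncertain. One HNRNPCL1 transcript, at most 0.0572 RPKM, fell below the filter of 1 RPKM, so that 79 of the 80 members were tested.

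**Figure D1:**
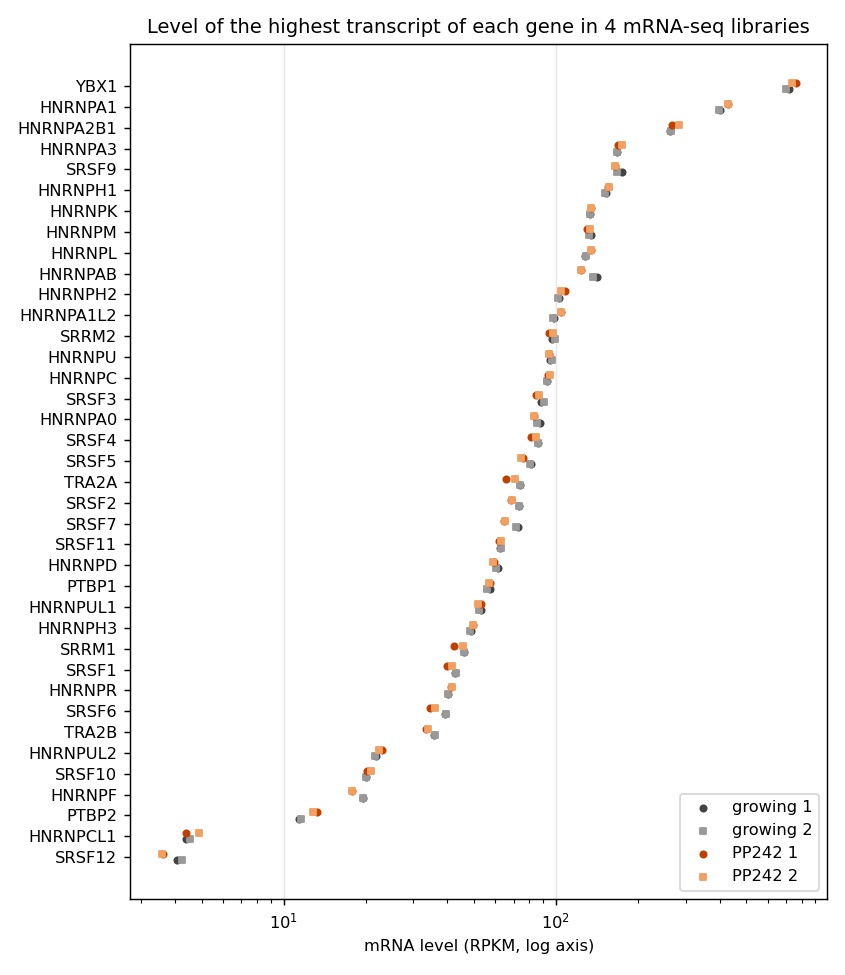
Level in RPKM (log axis) of the highest transcript of each of the 38 genes, with 1 point for each of the 2 growing and 2 PP242 libraries. YBX1 lies highest, at 703 RPKM or more, SRSF12 lies lowest, at 4.24 RPKM or less, and for most genes the 4 points lie close together.

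The question of the mRNA-seq comparison was whether the level of these mRNAs differed after PP242, which also bears on LARP1 binding values normalized to mRNA level. Differences were tested with limma on log2(RPKM + 1) over all 21014 transcripts whose mean reached 1 RPKM, and an adjusted p below 0.05 was taken as the threshold. On this scale the change of low transcripts is understated. In the same test, 3.48% of all transcripts were higher after PP242 and 6.45% were lower. Of the 79 members tested, 3 transcripts of 2 genes were higher and 15 transcripts of 7 genes were lower. Isoforms share most of their reads, so that these are not 18 independent results. With 1 transcript per gene, 2 of 38 genes were higher and 7 were lower. In bulk libraries a lower level in every cell cannot be told apart from fewer cells that carry the mRNA. All changes were small, between -0.18 and 0.17 on the log2 scale. The median change was -0.01 over the 79 members and 0.00 over all transcripts. The libraries of a condition differed in the median member by 0.01 on the log2 scale, in growing as in PP242-treated cells.

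These calls rest on 2 libraries per condition, and for any one transcript the smallest two-sided p of an exact permutation test is then 0.333. Without the first growing library 1 member was lower, without the second growing library 4, without the first PP242 library 3 and without the second PP242 library 6, and none was higher in any of these fits. Of the 18 called transcripts 1, 4, 3 and 5 passed in these fits, and the other one without the second PP242 library was TRA2A. Among all transcripts these fits called 309 to 348 higher and 546 to 768 lower. Without the filter on RPKM 0 members were higher and 0 lower, so that each of the 18 calls depends on it, and 57 of all transcripts were then higher and 63 lower. With eBayes without a trend 1 member was higher and 10 were lower, and after quantile normalization 5 were higher and 12 were lower.

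**Figure D2:**
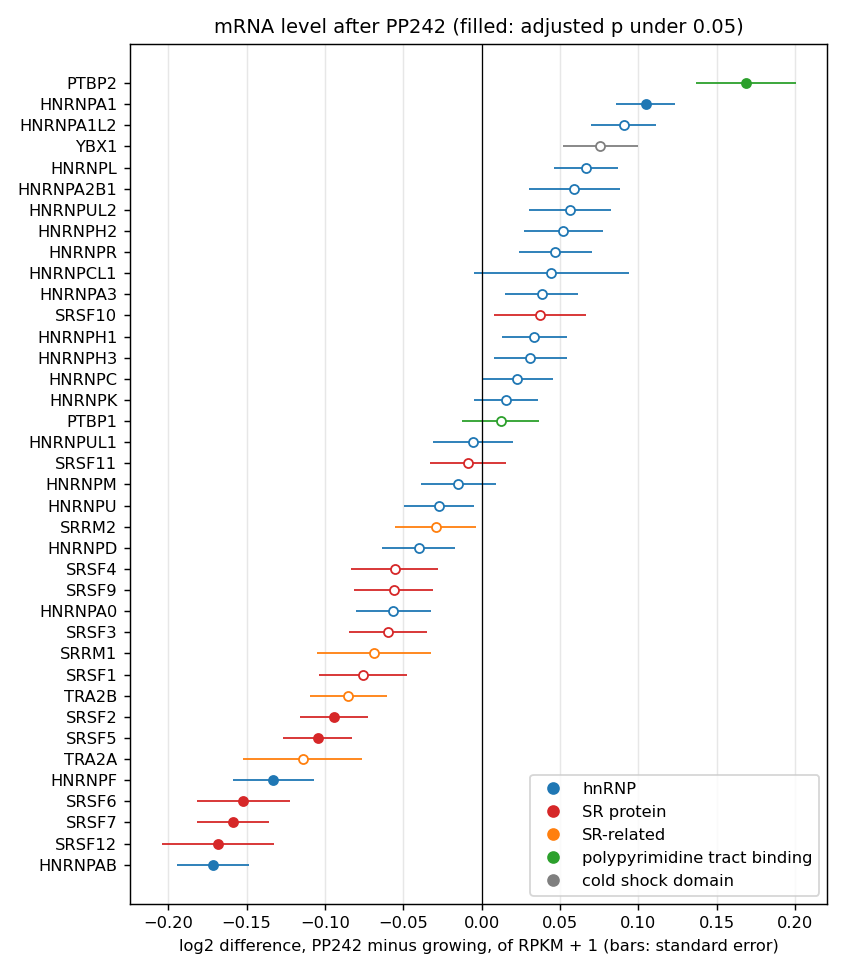
Difference in log2(RPKM + 1) between PP242 and growing cells for the highest transcript of each gene, with the standard error from limma; filled points have an adjusted p below 0.05 over all transcripts. Of 11 SR protein genes 10 lie below 0 and 5 of these are filled, and of 20 hnRNP genes 13 lie above 0, with HNRNPA1 filled, and 7 lie below 0, with HNRNPAB and HNRNPF filled. HNRNPH2 is drawn by a readthrough transcript, and with its plain transcripts 12 genes lie above 0.

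Among SR proteins no transcript was higher and 7 of 21 were lower, in SRSF2, SRSF5, SRSF6, SRSF7 and SRSF12. The fitted change was below 0 for 18 of the 21 transcripts, with a median of -0.06 on the log2 scale and a range of -0.18 to 0.04. The count below 0 was 18 under each scaling tried and 16 to 19 without 1 library. SRSF7, an SR protein with a zinc knuckle, had 73.0 and 71.7 RPKM in growing cells and 64.6 and 64.8 RPKM after PP242 in its higher transcript. Both values after PP242 lay below both growing values. This transcript fell by 0.16 on the log2 scale (SE 0.02, adjusted p = 0.0141), and the other SRSF7 transcript fell by 0.18 (SE 0.02, adjusted p = 0.00957). The latter transcript, NM_001195446.1, was the only one of the 18 called transcripts that passed the test without each of the 4 libraries in turn. The former, NM_001031684.2, did not pass without the first growing or without the first PP242 library.

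SRSF6, which binds exonic enhancers, had 39.2 and 39.4 RPKM in growing cells and 34.5 and 36.1 RPKM after PP242. It fell by 0.15 on the log2 scale (SE 0.03, adjusted p = 0.0327), and passed the test without the second PP242 library but not without any of the other 3. SRSF5 had 81.2 and 80.5 RPKM in growing cells and 75.5 and 74.7 RPKM after PP242. Its 2 transcripts fell by 0.10 and 0.11 on the log2 scale (adjusted p = 0.0402 and 0.0375). SRSF12, an SR protein of low level in these cells, had 4.07 and 4.24 RPKM in growing cells and 3.61 and 3.56 RPKM after PP242, a change of -0.17 (SE 0.04, adjusted p = 0.0408). In these 3 genes too the groups did not overlap. SRSF5 and SRSF12 did not pass the test when any one of the 4 libraries was left out.

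SRSF2, whose product marks exons for inclusion, had isoforms with unlike calls. The transcript NM_001195427.1 had 73.3 and 73.6 RPKM in growing cells and 68.7 and 68.8 RPKM after PP242, and fell by 0.09 on the log2 scale (SE 0.02, adjusted p = 0.0497), a p next to the threshold. The transcript NM_003016.4 had 55.6 and 55.4 RPKM in growing cells and 55.3 and 55.8 RPKM after PP242, with a fitted change of 0.00 (adjusted p = 0.986). The difference between both isoforms was not tested. SRSF2 lost its call in 10 of the 12 other fits of single transcripts, and passed only with a pseudocount of 0.1 and with a mean of at least 5 RPKM. It also did not pass when RPKM were summed per gene.

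The other SR proteins did not pass the test. SRSF1, a founding SR protein, had 42.8 and 43.1 RPKM in growing cells and 39.9 and 41.5 RPKM after PP242, with a fitted change of -0.08 (adjusted p = 0.146). SRSF3, the smallest SR protein, had 88.3 and 90.4 RPKM in growing cells and 84.8 and 86.6 RPKM after PP242, with a fitted change of -0.06 (adjusted p = 0.182). In both genes the groups did not overlap. SRSF9 and SRSF4 had fitted changes of -0.06 each, and SRSF11 one of -0.01. In SRSF10 the pair of transcripts near 20 RPKM had fitted changes of 0.04 each, and the 4 transcripts near 12 RPKM had values between -0.05 and -0.04, none of which passed the test.

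Transcripts that carry a noncoding RefSeq accession under the same gene names were outside the rule and share most of their sequence with the mRNAs, so that reads cannot be assigned to one form. The noncoding form of SRSF2, NR_036608.1, fell by 0.10 (adjusted p = 0.048) and that of SRSF6, NR_034009.1, by 0.14 (adjusted p = 0.0413). Those of SRSF3 and SRSF1 had fitted changes of -0.02 and -0.06 (adjusted p = 0.633 and 0.198).

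The 4 SR-related mRNAs had fitted changes below 0, with a median of -0.08, and none passed the test. TRA2A, a sequence-specific activator of exons, had 73.8 and 74.1 RPKM in growing cells and 65.7 and 70.9 RPKM after PP242, a fitted change of -0.11 (SE 0.04, adjusted p = 0.119). Its paralog TRA2B had 35.6 and 36.0 RPKM in growing cells and 33.4 and 33.9 RPKM after PP242, a fitted change of -0.09 (SE 0.02, adjusted p = 0.0877). Without the second PP242 library 1 of the 4 passed the test. SRRM1 and SRRM2, large coactivators that bridge SR proteins, had fitted changes of -0.07 and -0.03. The libraries of the SRRM2 groups overlapped.

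The hnRNP transcripts lay on both sides of 0. Of 48 tested, 2 were higher and 8 were lower, 29 had a fitted change above 0, and the median was 0.02 on the log2 scale. Both higher transcripts belong to HNRNPA1. Its values, 401 and 397 RPKM against 429 and 429 RPKM after PP242, did not overlap, and it rose by 0.10 on the log2 scale (SE 0.02, adjusted p = 0.0261). The other HNRNPA1 transcript, with 365 and 362 RPKM in growing cells and 390 and 390 RPKM after PP242, rose by the same amount (adjusted p = 0.0284). HNRNPA1 did not pass the test when any one library was left out. HNRNPA1L2, a nearly identical copy of HNRNPA1, had 98.3 and 98.0 RPKM in growing cells and 105 and 104 RPKM after PP242, just outside the threshold (adjusted p = 0.0501). The pseudogene HNRNPA1P10, which is listed under another name in the table, had 292 and 289 RPKM in growing cells and 312 and 316 RPKM after PP242, and rose by 0.11 (adjusted p = 0.0254). Since reads that match several loci equally were divided evenly among them, the levels of these copies cannot be told apart from that of HNRNPA1.

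HNRNPAB, which binds single-stranded RNA and DNA, had 141 and 138 RPKM in growing cells and 124 and 124 RPKM after PP242. Its 2 transcripts fell by 0.17 (SE 0.02, adjusted p = 0.011) and 0.16 (SE 0.02, adjusted p = 0.0126) on the log2 scale, and the groups did not overlap. The gene kept a call without each library except the first growing one. HNRNPF, which binds runs of guanines near splice sites, had 19.7 and 19.7 RPKM in growing cells and 17.8 and 17.9 RPKM after PP242. All 6 of its isoforms were lower, by 0.13 to 0.17 on the log2 scale, with adjusted p between 0.0181 and 0.0319. HNRNPF did not pass the test when any one library was left out. HNRNPH1 and HNRNPH3, which belong to the same subfamily, had fitted changes of 0.03 each and did not pass the test.

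There are 4 transcripts that carry the name HNRNPH2, and RefSeq assigns the higher 2 to a readthrough transcript of RPL36A and HNRNPH2. These had 102 and 102 RPKM, and 61.0 and 60.5 RPKM, in growing cells, against 17.1 to 18.1 RPKM for the plain HNRNPH2 transcripts. The value of the readthrough transcripts therefore cannot be taken as that of HNRNPH2. The fitted changes were 0.05 and 0.07 for the readthrough transcripts and -0.01 and -0.03 for the plain ones, and none passed the test.

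Several abundant hnRNP mRNAs showed little difference. HNRNPC, whose product forms tetramers on long uridine tracts, had 92.7 and 93.3 RPKM in growing cells and 93.5 and 95.4 RPKM after PP242, a fitted change of 0.02 (adjusted p = 0.563). HNRNPK, a protein with KH domains that binds cytidines, had 133 and 133 RPKM in growing cells and 135 and 135 RPKM after PP242, a fitted change of 0.02 (adjusted p = 0.661). HNRNPU, a nuclear matrix protein, had 95.5 and 97.2 RPKM in growing cells and 94.6 and 94.5 RPKM after PP242, a fitted change of -0.03 (adjusted p = 0.471). HNRNPU-AS1, a noncoding transcript antisense to HNRNPU and not a member, had 30.7 and 31.1 RPKM in growing cells and 24.1 and 26.0 RPKM after PP242, and fell by 0.29 on the log2 scale (adjusted p = 0.0114). Whether reads were counted by strand is not given in the sources used here, so reads of this overlapping pair may not be separable.

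PTBP1 and PTBP2 are paralogs that bind polypyrimidine tracts, and PTBP1 keeps the level of PTBP2 low outside neurons. PTBP2 had 11.4 and 11.6 RPKM in growing cells and 13.3 and 12.8 RPKM after PP242. The groups did not overlap, and PTBP2 rose by 0.17 on the log2 scale (SE 0.03, adjusted p = 0.029), the largest rise of the members. It did not pass the test when any one library was left out. PTBP1 had 57.4 and 56.1 RPKM in growing cells and 57.5 and 56.9 RPKM after PP242, a fitted change of 0.01 (adjusted p = 0.785) with overlap between its groups. YBX1 had a fitted change of 0.08 (SE 0.02, adjusted p = 0.11), with both values after PP242 above both growing values.

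Both libraries after PP242 lay above both growing libraries in 31 of 79 member transcripts and below them in 34 of 79. Over all transcripts tested these shares were 28.5% and 30.0%, and the members' counts, which include many isoforms of one gene, stand at 15 and 17 of 38 with 1 transcript per gene. Of the 21 SR protein transcripts 16 were separated downward and 2 upward, and of the 48 hnRNP transcripts 26 were separated upward and 15 downward.

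Other genes of the splicing pathway were read from the same fit. Of 15 transcripts of the kinases that phosphorylate SR proteins and of their import receptor, 4 were higher and 0 were lower, with a median change of 0.07 on the log2 scale. The 2 CLK1 transcripts, for a nuclear kinase of SR proteins, rose by 0.26 and 0.29 (adjusted p = 0.0128 and 0.00793). The higher of them had 5.69 and 5.52 RPKM in growing cells and 6.95 and 7.21 RPKM after PP242. CLK2 rose by 0.14 (adjusted p = 0.0423) and SRPK2, a mostly cytoplasmic kinase, by 0.13 (adjusted p = 0.0496). Of 88 transcripts of other splicing regulators 1 was higher, CIRBP, the cold-inducible RNA binding protein, at 0.20 (adjusted p = 0.0101), and 1 was lower, PCBP1, a poly(C)-binding protein, at -0.15 (adjusted p = 0.0154). Of 58 transcripts of the core spliceosome 0 were higher and 1 was lower, SF3B4, a subunit of the U2 particle, at -0.25 (adjusted p = 0.0142). The median change was 0.01 for the other regulators and -0.02 for the core spliceosome. Whether the calls of these pathway genes hold when 1 library is left out was not examined.

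LARP1 binding was read from the site lists of the PAR-CLIP libraries. A site is a cluster of reads in a RefSeq transcript, marked as 5′UTR, CDS or 3′UTR, and its RPM is the sum of its reads scaled to the mapped reads of the library. A site on several isoforms is listed for each of them. With 1 library per condition there is no replicate check and no test, and the sites listed have values down to 0.0002 RPM, so that the absence of a gene from a list is no measured zero. The values below therefore compare libraries, not conditions. A gene listed only at values far below 1 RPM is not thereby shown to be bound.

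In growing cells 4 of 38 genes had a listed site, HNRNPL, SRSF1, SRSF6 and TRA2A. In all genes with a transcript of at least 1 RPKM this share was 10.3%. All 8 listed sites lay in the 3′UTR and none exceeded 0.0051 RPM. The highest was that of TRA2A, at nucleotides 1121-1135 of its transcript. SRSF6 had 0.0026 RPM, SRSF1 0.0017 RPM, and HNRNPL 0.0005 and 0.0007 RPM at separate positions. The values of the SRSF1 and SRSF6 sites were listed for genes outside the family as well. No member reached 1 RPM at any site, whereas 1.74% of all genes did, and 8.00% of genes with a transcript of at least 50 RPKM, a class of level chosen after the values were seen. Of the members 26 genes were in this class, or 25 when HNRNPH2 is represented by its plain transcripts.

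After PP242, 11 of 38 genes had a listed site, against 11.2% of all genes with a transcript of at least 1 RPKM. These members were HNRNPA2B1, HNRNPF, HNRNPH3, HNRNPL, HNRNPM, HNRNPU, HNRNPUL1, PTBP1, SRSF3, SRSF10 and TRA2A. For any listed site the share was not taken among genes as abundant as the members, so mRNA level is not accounted for here. A site of at least 1 RPM was listed in 4 of 38 genes, against 3.84% of all genes. Counted among genes with a transcript of at least 50 RPKM, 4 of 26 members had such a site against 18.8% of all such genes, or 4 of 25 with the plain HNRNPH2 transcripts. Counting each site once per gene, the members held 1818 RPM, which was 0.635% of the RPM of distinct mRNA sites in that library, and HNRNPA2B1 and SRSF3 held 94.8% of it. In growing cells the same sum was 0.0106 RPM.

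**Figure D3:**
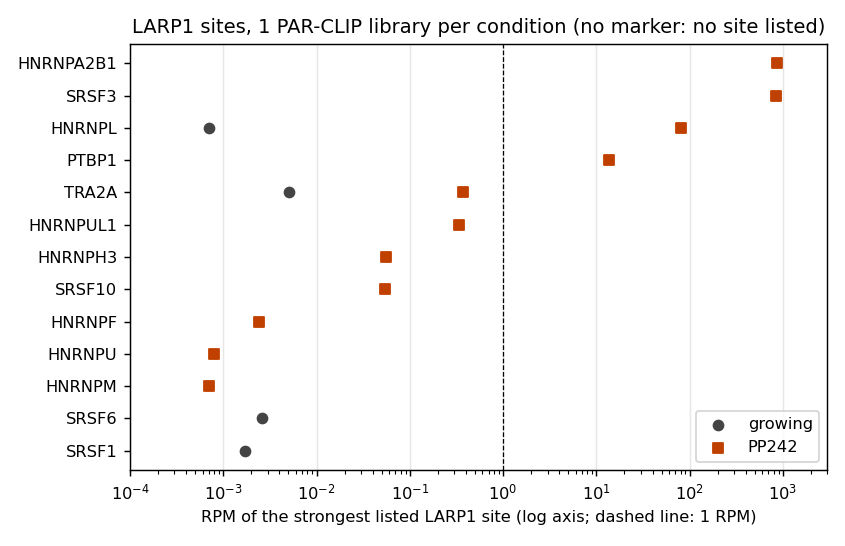
RPM (log axis) of the strongest listed LARP1 site of each of the 13 genes with a site in either condition, with 1 PAR-CLIP library per condition; a missing marker means that no site was listed. HNRNPA2B1, SRSF3, HNRNPL and PTBP1 lie right of the line at 1 RPM after PP242, and no gene does in growing cells.

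The 4 sites of at least 1 RPM were all in the 3′UTR and all from the PP242 library. HNRNPA2B1 (GRCh37, chr7:26210771-26241149, minus strand) carried a site of 872 RPM. It was listed at nucleotides 1433-1456 of NM_002137.3 and at 1469-1492 of NM_031243.2. The constant offset of 36 nucleotides and the same RPM mark it as 1 site on 2 isoforms. SRSF3 (GRCh37, chr6:36562130-36573377, plus strand) carried a site of 851 RPM at nucleotides 1746-1769. The same value was listed on its noncoding transcript NR_036610.1, at nucleotides 2202-2225. This transcript differs in offset by 456 nucleotides, so the reads cannot be assigned to the coding or the noncoding form. Neither gene had a site listed in growing cells.

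HNRNPL (GRCh37, chr19:39327010-39342987, minus strand), whose product binds CA repeats, carried a site of 80.6 RPM at nucleotides 1844-1861 of NM_001005335.1, also listed on its other transcript. PTBP1 (GRCh37, chr19:797075-812327, plus strand) carried a site of 13.7 RPM at nucleotides 2294-2310 of NM_002819.4, also listed on its 3 other transcripts. Among the 1346 distinct 3′UTR sites on mRNAs after PP242, of which 304 reached 1 RPM, these 4 sites ranked 66, 71, 216 and 255. None of the 4 values was listed for a gene outside the family. None of the 4 mRNAs passed the test of mRNA level, with fitted changes of 0.06 for HNRNPA2B1, -0.06 for SRSF3, 0.07 for HNRNPL and 0.01 for PTBP1.

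The deposited lists also give, as a scaled ratio, the RPM of a site relative to the RPKM of its transcript. By this ratio SRSF3 stood highest, at 9935, against 3164 and 3197 for the HNRNPA2B1 transcripts. HNRNPL stood at 598 and 640 and PTBP1 between 239 and 321. SRSF3 and HNRNPA2B1, similar in RPM, thus differed in this ratio because their mRNA levels after PP242 were 85.7 and 275 RPKM as the authors' mean. The 4 genes whose site reached 1 RPM all had a transcript of at least 50 RPKM, and YBX1 and HNRNPA1, the most abundant members, had no site listed in either condition. The paper counts YBX1 among mRNAs that do not interact with LARP1, and reports it as such in its polysome experiment.

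**Figure D4:**
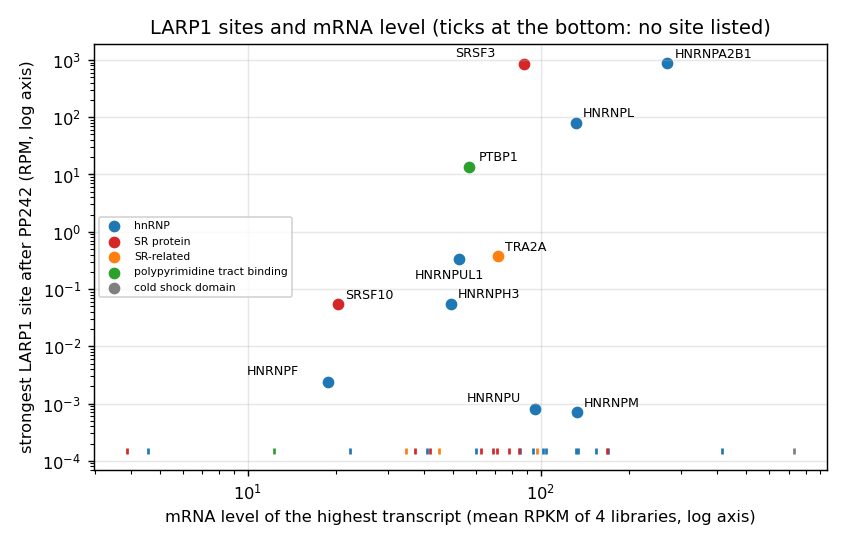
RPM of the strongest LARP1 site after PP242 against the mean RPKM of the highest transcript (both log axes), with 1 point per gene and ticks at the bottom for the genes without a listed site. SRSF3 and HNRNPA2B1 stand near the top at different mRNA levels, and YBX1, with the highest mRNA level, has no listed site.

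The lists hold a further column named for T-to-C reads, the conversion that 4-thiouridine leaves at crosslinked uridines, whose unit is not described. In the PP242 library the median of this column per RPM was 28.3 over 1191 listed sites of at least 1 RPM. These include sites on noncoding transcripts, and a site on several isoforms counts for each of them. The sites of HNRNPA2B1, SRSF3, HNRNPL and PTBP1 had 28.3, 28.2, 28.3 and 28.3, near the median. The quartiles were 9.52 and 28.3, so that values near 28.3 were common among the listed sites. The median and the upper quartile nearly coincided, at 28.3062 and 28.3179. A weaker HNRNPL site, at nucleotides 1645-1670 with 0.04 RPM, had 0.225, and the SRSF10 site, with 0.0545 RPM, had 0.809. If the column counts converted reads, its ratio to RPM is highest where every read of a site is converted. Values near 28.3 would then mark sites where nearly all reads were converted, and values below 1 sites where few were. This reading of the column was not tested. Before division by RPM, the column itself was 0.0139 to 0.116 at the listed member sites in growing cells. After PP242 it was 0.009 to 0.0667 at the sites of HNRNPF, HNRNPU, HNRNPM and SRSF10 and the weaker HNRNPL site. If the column counts reads divided among their matches, each of these sites held less than 1 converted read.

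The remaining sites after PP242 were below 1 RPM. TRA2A had 0.374 RPM at nucleotides 1121-1135, the position of its site of 0.0051 RPM in growing cells. HNRNPUL1, an hnRNP U-like protein, had 0.335 RPM at nucleotides 188-205, which was the only 5′UTR site of any member in either library. HNRNPH3 had 0.0555 RPM, HNRNPF 0.0024 RPM, HNRNPU 0.0008 RPM and HNRNPM 0.0005 to 0.0007 RPM at 5 places in its coding sequence. The values of these last 4 genes were also listed for genes outside the family, so that their reads may come from elsewhere. Without such shared values 7 of 38 genes had a site after PP242 and 2 in growing cells. The share of all genes under this rule was not taken, so these counts have no background beside them.

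Of the other pathway genes, 0 of 9 kinase and import genes reached 1 RPM at a site in either library. Of 34 other regulators FUBP1 had one in growing cells, of 480 RPM in the 3′UTR. After PP242 RBM5, NONO, RBM3 and KHSRP had one, of which RBM5 had 518 RPM in its coding sequence and KHSRP 1.24 RPM in the 3′UTR. Of 40 core spliceosome genes SNRNP200 had one in growing cells and SNRPB had a pair after PP242. Among all genes with a transcript of at least 1 RPKM, 1.74% had such a site in growing cells and 3.84% after PP242. The T-to-C column per RPM was below 1 for the sites of SNRNP200, SNRPB, NONO and RBM3, unlike those of HNRNPA2B1 and SRSF3. It was 28.3 for the sites of RBM5 and KHSRP after PP242 and 25.8 for that of FUBP1 in growing cells.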

How the data were processed

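LARP1 PAR-CLIP and mRNA-seq reads were mapped by the authors with Bowtie to the GRCh37 transcriptome (up to 3 mismatches; version not given in the sources used here). From the mRNA-seq reads the authors took perfect matches, divided reads with several matches evenly among them, and deposited RPKM per RefSeq transcript and library, with condition means. PAR-CLIP reads with up to 2 T-to-C mismatches were clustered by the authors, who smoothed the clusters and deposited site RPM, the ratio of RPM to RPKM, and a T-to-C column of undescribed unit, used here as a score. The paper also describes an RPM threshold, found empirically, that its binding sites had to pass. Whether each listed site passed it was not examined here, so a listed site need not be one that the paper counts. The number of mapped reads was not used here.

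The table held 39711 lines, of which 1273 repeats were dropped. The test of levels was limma (version 3.58.1, R 4.3.3, eBayes with a trend) on log2(RPKM + 1) over the 21014 transcripts whose mean reached 1 RPKM, and p-values were adjusted over all of these by Benjamini-Hochberg. A count test was not used, because RPKM are not counts. In simulated data of this comparison, over 21014 transcripts, the test called 99 of 103 transcripts changed by 0.5 on the log2 scale, 97 of 97 changed by 1, and 20 unchanged ones. Changes as small as those of the members were not simulated. The labels do not say whether the duplicates came from separate cultures, so p-values measure only the spread between these libraries.

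The members and gene lists were chosen with earlier results of these data known. Named genes were those with a listed site, those with a called transcript, the 5 most abundant, and a fixed set of well-known members; others were named to complete a group, after their values were seen. For each gene the transcript of highest mean RPKM stands unless another is named. RefSeq names by accession would add 5 transcripts of HNRNPD, HNRNPDL, HNRNPUL1, SRSF8 and TRA2B, none of which passed the test. Family-named genes under older symbols, HNRPDL and HNRPLL, were placed among the other regulators. Start sequences come from RefSeq on GRCh38.p14, matched by symbol for 35 of 38 genes, and gene positions from GENCODE on GRCh37. Site positions are given along the RefSeq transcript. The alternatives were other pseudocounts, filters, scalings, a replicate block, leaving out each library, sums per gene, and other thresholds for sites. Tables and plots were made with Python 3.11.15, pandas 2.3.3, numpy 2.4.6 and matplotlib 3.10.9.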

Additional observations from a re-analysis of the deposited data

How the results depend on the processing

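The 18 called transcripts had the same direction in each alternative in which they were fitted, but the number past the threshold depended on the processing. Without a filter on RPKM 0 members were higher and 0 lower by limma, and among all transcripts 57 were higher and 63 lower. With a mean of at least 5 RPKM 5 members were higher, after quantile normalization 5, and with eBayes without a trend 1. The replicate numbers were not taken to pair the libraries, because deviations of same-numbered libraries had a correlation of 0.04; with a replicate block 5 members were higher and 13 lower, and SRSF2 and SRSF12 were not called. After summing RPKM per gene 6 genes were lower. Leaving out 1 library gave 0 higher and 1 to 6 lower members, and 309 to 348 higher and 546 to 768 lower transcripts overall. HNRNPUL1 changed sign under quantile normalization, at 0.0113. With 1 library left out the log2 change ranged from -0.0232 to 0.0122 for HNRNPUL1, from -0.0040 to 0.0282 for PTBP1, from -0.0244 to 0.0072 for SRSF11, from -0.0346 to 0.0051 for HNRNPM and from -0.0176 to 0.1065 for HNRNPCL1. None of these 5 genes was called. The causes of these shifts were not tested.

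Genes with a LARP1 site in growing cells numbered 0 at thresholds of 0.1 and 1 RPM and 2 without values shared with other genes. After PP242 they numbered 6, 4 and 7. At 0.1 RPM and without shared values the share over all genes was not taken, so these counts have no background. The summed RPM in growing cells was 0.0135 over all listed sites, 0 at either threshold, 0.0075 without shared values and 0.236 as the authors' ratio to RPKM. After PP242 it was 2811, with 1818 when each value was counted once per gene and 18623 as the ratio. With 2 mRNA-seq libraries and 1 PAR-CLIP library per condition, neither differences smaller than the spread of libraries nor differences in binding can be tested.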
